A study of Mus musculus with 20 samples.

Results

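The genes described here encode proteins of the mitochondrial respiratory chain, measured while 3T3-L1 cells, an established line of mouse fibroblasts, turned into fat-storing adipocytes. The rule for a member uses names and no measured level. It takes every gene on the arrays whose only symbol begins with Nduf (complex I), Uqcr or equals Cyc1 (complex III), begins with Cox4 to Cox8 apart from Cox8b (complex IV), begins with Atp5 (complex V), or equals Cycs (cytochrome c). This gave 55 genes of the 6137 with a single symbol: 22 for complex I, 8 for complex III, 1 for cytochrome c, 11 for complex IV and 13 for complex V. Each gene was read from the probe set with the highest mean over the 10 samples. A prefix also takes in genes that are not subunits, and Ndufaf1 and Ndufaf4 encode assembly factors of complex I. Complex II has its own symbols and is given with the other mitochondrial genes below, while the subunits encoded by mitochondrial DNA were not analysed here.

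RNA came from 10 time points, each measured once on array A and once on array B, which carry different probe sets. The samples before induction were preconfluent and confluent cells (n = 2). After induction with the MDI hormone mixture, in standard use isobutylmethylxanthine, dexamethasone and insulin, there were early samples at 6, 12 and 24 hours (n = 3), middle samples on days 2 and 3 (n = 2) and late samples on days 4, 7 and 28 (n = 3). The labels name no genetic change, so the groups differ by confluence, induction and time alone as far as the labels go, and no time point had a replicate. The p-values therefore rest on how far adjacent times within 1 stage, or times about a fitted curve, lay from each other. That spread holds real change with time and may also be technical. Levels are array intensities on a linear scale, which can fall below 0, and log2 values were taken after raising values under a floor (136 on array A, 156 on array B) to it. A level was compared only with levels of the same probe set.

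The respiratory chain passes electrons from NADH through complex I, and from succinate through complex II, to ubiquinone, then through complex III to the small carrier cytochrome c and through complex IV to oxygen. Complexes I, III and IV pump protons across the inner mitochondrial membrane, and complex V, the ATP synthase, uses their return to make ATP. White adipocytes are known to gain mitochondria as they differentiate.

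All 8 adipocyte markers were called higher in late samples than before induction, and their summed level on the arrays lay between 103990 and 120000 in late samples and between 2361 and 10184 before induction. Of 7 fibroblast and preadipocyte markers, 2 were called lower and 0 higher, with sums of 33160 to 60470 in late samples and 64280 to 83790 before induction. Macrophage markers summed to 3530 to 5293 in late samples and 5920 to 6044 before induction, with 5 of 11 at or below the floor throughout and, of the 6 tested, 2 called lower (C1qc and Cd14) and 0 higher. Muscle markers summed to 6844 to 10833 in late samples and 8062 to 10389 before induction, and of the 10 tested 1 was called higher (Des) and 0 lower. Des was above the level required for testing in late samples only (226, 321 and 456), so its call is no independent support. The sums hold opposite changes. Mb had 605, 651 and 4790 in late samples against 486 and 567 before induction, and Actc1 had 1390, 1220 and 1090 against 4960 and 1980. The ratio of the 3′ to the 5′ Gapdh control on array A, a sign of RNA or labelling quality, was 1.14, 1.13 and 0.992 in late samples against 0.986 and 1.33 before induction, and lay between 1.28 and 1.61 from 6 hours to day 3. The beta-actin ratio on array B, which measured 13 of the 53 tested members, was 1.02, 0.955 and 1.05 in late samples against 0.824 and 0.872 before induction, without overlap, and the Gapdh ratio there was 0.737, 0.748 and 0.773 in late samples against 0.815 and 0.788 before induction, also without overlap but lower. The beta-actin ratio on array A was 1.33, 1.29 and 1.41 in late samples against 1.05 and 1.48 before induction. The part of these values in the results below was not tested. In bulk RNA of a culture, a larger share of differentiated cells and more of an mRNA per cell cannot be told apart.

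In late samples against those before induction, 28 of the 53 members tested were higher by limma with an adjusted p under 0.05 (52.8%), and 0 were lower. Over all 7582 probe sets tested, 5.82% were called higher and 5.08% lower. Without adjustment, 44 members had a p under 0.05 in the upward and 0 in the downward direction. The count of 28 was 17 with no filter on low levels and 13 without the preconfluent sample. The log2 change of the 53 had a median of 1.08, against -0.05 over all probe sets tested, and 52 were above 0. In 47 of the 53, the 3 late samples all lay above both samples before induction, a pattern seen in 15.8% of all probe sets tested. The plot of the changes by gene shows them complex by complex. Calls were made for 10 of 21 tested members of complex I, 7 of 8 of complex III, cytochrome c, 3 of 11 of complex IV and 7 of 12 of complex V. Differences between the complexes were not tested as such.

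**Figure D1:**
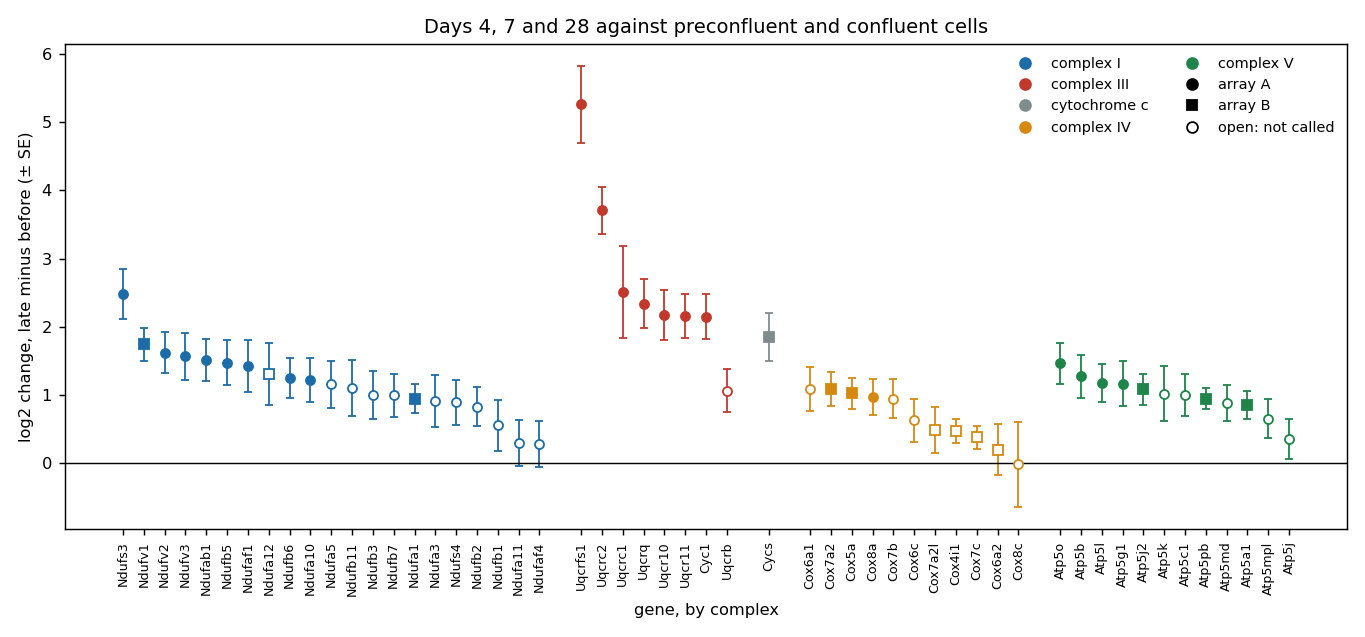
The log2 change of each of the 53 tested genes, late samples (days 4, 7 and 28) minus samples before induction (preconfluent and confluent), with its standard error from limma, grouped by complex. Filled symbols are genes called at an adjusted p under 0.05, circles were read on array A and squares on array B. The median was 2.26 for complex III, 1.16 for complex I, 1.01 for complex V and 0.63 for complex IV.

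The other 2 members of the 55 gave no measurable level. Ndufb10 of complex I lay between -300 and 79 and Atp5d, the delta subunit of complex V, between -748 and 82, so that all 10 samples of each were at or below the floor. Of the 53 tested, 9 had at least 1 sample at or below the floor: Ndufa10, Ndufa11, Ndufaf1, Ndufaf4, Uqcrc1, Uqcrc2, Uqcrfs1, Cox6a2 and Atp5pb. Testing required a level above a limit (182 on array A, 156 on array B) in at least 2 samples. None of the 53 was above it in late samples only. Ndufa10 (185 at 6 hours), Ndufaf4 (246 on day 3) and Cox6a2 (313 in confluent cells) met this only with late samples counted. The call of Ndufa10 among the 28 thus leans on the stage where it was high. With the floor raised 2 times, 3 of the 28 calls were lost, those of Ndufa10, Uqcrc1 and Atp5pb, and with the floor divided by 2, 6 were lost.

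Complex I takes electrons from NADH, and its 21 tested members had a median log2 change of 1.16 and a range of 0.29 to 2.48 in late samples against those before induction. Ndufs3, a core subunit of the arm that reaches into the matrix, had a level of 1200 and 1480 before induction, 1350, 2230 and 1900 in early, 2730 and 5440 in middle and 6140, 7740 and 8680 in late samples. The late levels all lay above the other samples, and the change was 2.48 ± 0.37 on the log2 scale (± SE), 5.59-fold, with an adjusted p of 0.00262 by limma. Its 300-base window around the gene start, from 250 bases before to 50 after, held 2 matches to CCGGAAG, a core of the sites bound by GABP (NRF-2), a regulator of respiratory chain genes. The window is at chr2:90904672-90904971 of GRCm38.p6 on the minus strand, is taken from RefSeq, and is shown with the matches on either strand in capitals.
Ndufs3: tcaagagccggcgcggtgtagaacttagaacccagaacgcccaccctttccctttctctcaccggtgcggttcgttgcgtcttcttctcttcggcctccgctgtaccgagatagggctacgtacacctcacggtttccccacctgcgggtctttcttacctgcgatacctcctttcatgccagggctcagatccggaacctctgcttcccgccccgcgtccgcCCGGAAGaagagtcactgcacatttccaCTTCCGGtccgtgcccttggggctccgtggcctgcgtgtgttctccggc

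The 3 subunits of the flavoprotein part that receives the electrons from NADH all rose. Ndufv1, the subunit that holds the flavin, had 5630, 3960 and 5890 in late samples, against 1540 and 1500 before induction (1.74 ± 0.24 on the log2 scale, adjusted p = 0.0033 by limma). Ndufv2, its iron-sulphur partner, had 4470, 5130 and 6720 in late samples, against 1710 and 1780 before induction (1.62 ± 0.30, adjusted p = 0.00709 by limma). Ndufv3, an accessory subunit, had 8400, 11800 and 11600 in late samples, against 2620 and 4780 before induction (1.57 ± 0.35, adjusted p = 0.0158 by limma). In none of the 3 did late levels overlap those before induction. Of the 28 calls, that of Ndufs3 and that of Ndufv1 held with each sample left out in turn, while Ndufv2 had an adjusted p of 0.0525 and Ndufv3 of 0.139 by limma without the preconfluent sample.

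Among accessory subunits, Ndufab1, the mitochondrial acyl carrier protein, had 581, 610 and 571 in late samples, against 241 and 176 before induction, 2.85-fold higher with an adjusted p of 0.0104 by limma. Ndufb5 had 3960, 4150 and 4350 in late samples, against 1150 and 1940 before induction (2.78-fold, adjusted p = 0.0174) and Ndufb6 had 2040, 1590 and 1610 in late samples, against 851 and 623 before induction (2.38-fold, adjusted p = 0.0203), both part of the membrane arm. The smallest called change of complex I was that of Ndufa1, with 11300, 11100 and 9960 in late samples, against 4560 and 6840 before induction on array B (1.93-fold, adjusted p = 0.0235). These 4 also had no overlap between late samples and those before induction. Each of these calls was lost in a fit that left 1 sample before induction, so the loss need not mean that the omitted sample drove it. Without the confluent sample the log2 change was 1.28 for Ndufab1 (1.51 with all samples) and 1.03 for Ndufb6 (1.25). Without the preconfluent sample it was 1.10 for Ndufb5 (1.47 with all samples). The call of Ndufb6 was also lost without the preconfluent sample, where its log2 change was 1.48. That of Ndufa1 was lost without the preconfluent, the day 4 or the day 7 sample. The log2 change of Ndufa1 was 0.66 without the preconfluent sample, against 0.95 with all samples.

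Both remaining calls of complex I rest on levels near the floor. Ndufa10 had 362, 393 and 223 in late samples, against 128 and 96 before induction, at least 2.33-fold higher, with an adjusted p of 0.0332. The assembly factor Ndufaf1 had 654, 434 and 474 in late samples, against 1 and 269 before induction, at least 2.57-fold higher, with an adjusted p of 0.0379. Late levels lay above the floor and both samples before induction in each. Ndufa10 lost its call in 7 and Ndufaf1 in 5 of the 10 fits that left out a sample, at most with an adjusted p of 0.133 for Ndufa10 and 0.284 for Ndufaf1, both without the preconfluent sample. The others were the confluent, 12-hour, day 2, 3, 4 and 7 samples for Ndufa10, and the 12-hour, day 4, 7 and 28 samples for Ndufaf1. The log2 change of Ndufaf1 was 0.93 without the preconfluent sample, against 1.42 with all samples.

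The 11 tested members of complex I without a call had log2 changes above 0, between 0.29 and 1.31. Ndufa12, the largest of them, had 1310, 617 and 1310 in late samples, against 512 and 332 before induction (adjusted p = 0.109 by limma). Ndufb3 had 3860, 3810 and 4380 in late samples, against 1720 and 2340 before induction (adjusted p = 0.0939), and Ndufb7 had 6580, 6090 and 8200 in late samples, against 3320 and 3600 before induction (adjusted p = 0.0668). In all 3, the late samples did not overlap those before induction. The log2 change and its adjusted p were 1.16 and 0.0554 for Ndufa5, 1.10 and 0.121 for Ndufb11, 0.89 and 0.121 for Ndufs4 and 0.82 and 0.0933 for Ndufb2. Ndufa3 was uneven among late samples, with 10400, 16800 and 26600 in late samples, against 7580 and 10300 before induction (adjusted p = 0.157). Day 28 stood above every other sample of Ndufa3, and day 4 was below every early and middle sample. The smallest changes were those of Ndufb1, with 0.56 and an adjusted p of 0.392, Ndufa11, with 0.29 and 0.64, and the assembly factor Ndufaf4, with 0.29 and 0.651.

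Complex III, which passes electrons from ubiquinol to cytochrome c, had the largest median log2 change of the 4 complexes, 2.26 with a range of 1.06 to 5.26 over 8 genes, all read on array A. The Rieske iron-sulphur protein Uqcrfs1, which carries electrons within the complex, had a level of 171 and 110 before induction, -174, 371 and 763 in early, 3540 and 4760 in middle and 6010, 5120 and 6480 in late samples. Every late and middle level lay far above those before induction. The change of 5.26 ± 0.56 was at least 38.2-fold (adjusted p = 0.00049 by limma). Uqcrc2, a core protein of the matrix side, had 212 and 1 before induction, -84, -123 and 204 in early, 864 and 1350 in middle and 2520, 1900 and 2280 in late samples, a change of 3.71 ± 0.35 and of at least 12.8-fold (adjusted p = 0.000218). Before induction and through 24 hours Uqcrc2 was near or below the floor, and all middle and late levels lay above it.

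The other core protein, Uqcrc1, had 1110 and 395 before induction, -436, -729 and 571 in early, 1250 and 2480 in middle and 5040, 2430 and 4400 in late samples. Its level was below the floor at 6 and 12 hours, lower than in either sample before induction, and its late level was 5.70-fold that before induction (2.51 ± 0.67 on the log2 scale, adjusted p = 0.0361 by limma). Without the confluent sample the log2 change was 1.77 with an adjusted p of 0.246, and the call was also lost without the preconfluent, the day 4 or the day 28 sample.

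Cyc1, the cytochrome c1 that hands electrons to cytochrome c, had 2380 and 1880 before induction, 2210, 2810 and 3090 in early, 5260 and 8050 in middle and 7500, 9660 and 11400 in late samples, 4.44-fold higher late than before induction (adjusted p = 0.0027 by limma). Of the small subunits, 3 were called. Uqcrq, annotated as ubiquinone-binding, had 8960, 6840 and 9250 in late samples, against 1940 and 1380 before induction (5.06-fold, adjusted p = 0.00274). Uqcr10 had 8750, 5650 and 8370 in late samples, against 1650 and 1650 before induction (4.52-fold, adjusted p = 0.0045) and Uqcr11 had 10400, 6580 and 9170 in late samples, against 2030 and 1820 before induction (4.45-fold, adjusted p = 0.0027). Late levels did not overlap those before induction in any of these, and the calls of Uqcrfs1, Uqcrc2, Cyc1, Uqcrq, Uqcr10 and Uqcr11 held with each sample left out in turn. The one member without a call, Uqcrb, had 2680, 2440 and 2970 in late samples, against 1400 and 1180 before induction (1.06 ± 0.32, adjusted p = 0.0563), again with no overlap. Among the 8 genes, 7 had a lower level in confluent than in preconfluent cells, and Uqcr10 had the same level in both. Over all probe sets tested 47.6% were lower in confluent cells, and the step compares single samples. In the other complexes fewer were lower: 8 of 21 in complex I, 3 of 11 in complex IV and 3 of 12 in complex V.

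**Figure D2:**
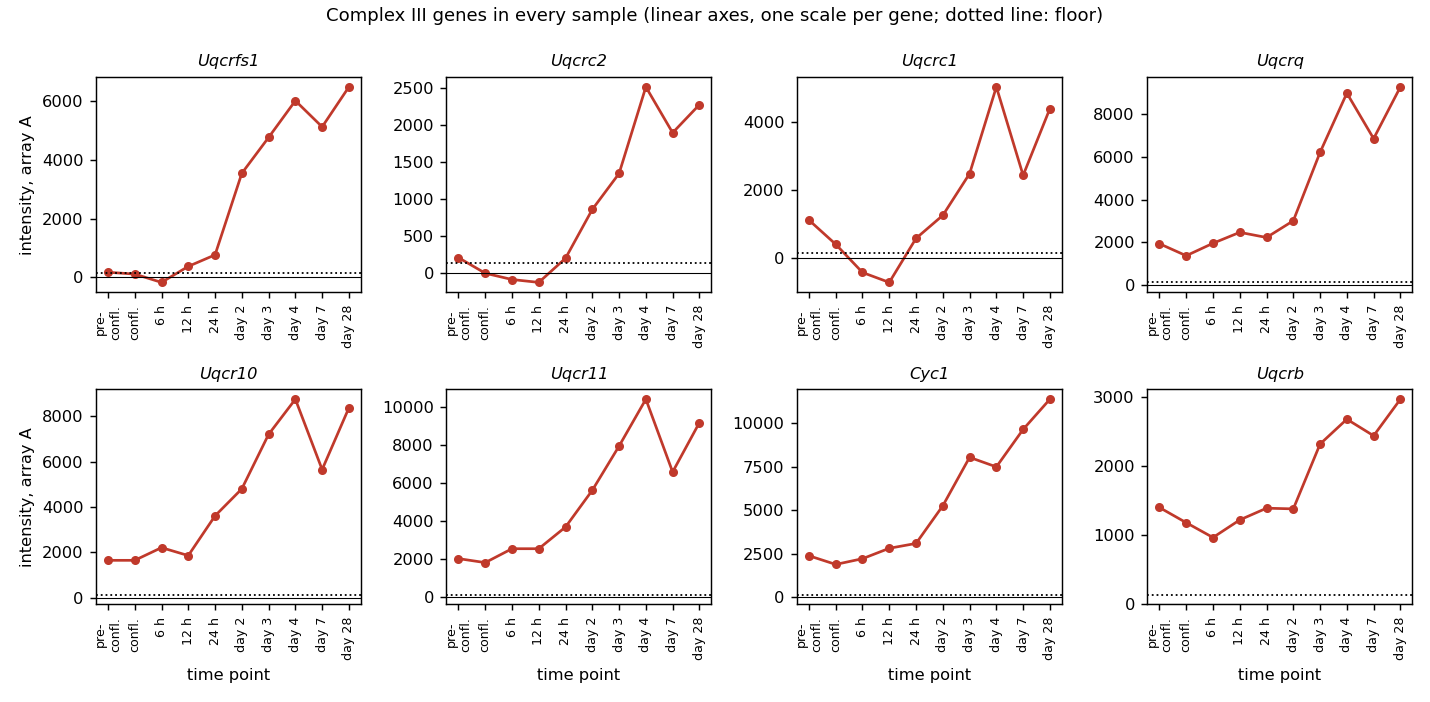
Intensity of the 8 complex III genes in each of the 10 samples, in time order, 1 panel per gene with its own linear axis, and the floor of 136 as a dotted line. Uqcrfs1 and Uqcrc2 start near the floor and climb between 24 hours and day 2, and 7 of the 8 genes dip on day 7 between days 4 and 28.

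RefSeq windows of 300 bases around the start were at hand for 4 complex III genes. They are shown because all 4 were called higher in late samples, and capitals mark matches on either strand to a pair of GCGC with any 2 bases between them (bound by NRF1), CCGGAAG (GABP) or AANATGGC (YY1), 3 factors known for sites in respiratory chain promoters. On GRCm38.p6 the windows are chr13:30545267-30545566 on the minus strand for Uqcrfs1, chr9:108936398-108936697 on the plus strand for Uqcrc1, chr11:4704295-4704594 on the minus strand for Uqcr10 and chr10:80406772-80407071 on the minus strand for Uqcr11. Uqcrc1 held 2 matches to the NRF1 motif, both after the annotated start, Uqcr11 held 1 to the GABP motif, and Uqcrfs1 and Uqcr10 held none of the 3.
Uqcrfs1: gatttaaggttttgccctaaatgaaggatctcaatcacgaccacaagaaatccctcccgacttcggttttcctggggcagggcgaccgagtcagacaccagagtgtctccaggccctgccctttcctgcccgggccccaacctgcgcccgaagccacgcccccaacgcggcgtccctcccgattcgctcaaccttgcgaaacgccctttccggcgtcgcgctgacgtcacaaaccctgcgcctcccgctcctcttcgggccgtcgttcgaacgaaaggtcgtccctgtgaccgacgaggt
Uqcrc1: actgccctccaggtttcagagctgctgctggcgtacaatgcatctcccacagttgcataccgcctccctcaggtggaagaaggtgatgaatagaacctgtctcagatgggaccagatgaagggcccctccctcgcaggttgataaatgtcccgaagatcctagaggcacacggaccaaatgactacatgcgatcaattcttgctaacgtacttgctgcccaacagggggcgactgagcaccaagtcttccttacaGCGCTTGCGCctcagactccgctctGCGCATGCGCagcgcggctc
Uqcr10: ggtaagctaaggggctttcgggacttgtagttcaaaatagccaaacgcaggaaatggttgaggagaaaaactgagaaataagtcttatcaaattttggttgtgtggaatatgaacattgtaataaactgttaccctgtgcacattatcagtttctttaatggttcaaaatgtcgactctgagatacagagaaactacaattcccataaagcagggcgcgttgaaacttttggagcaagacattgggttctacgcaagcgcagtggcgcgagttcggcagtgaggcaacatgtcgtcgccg
Uqcr11: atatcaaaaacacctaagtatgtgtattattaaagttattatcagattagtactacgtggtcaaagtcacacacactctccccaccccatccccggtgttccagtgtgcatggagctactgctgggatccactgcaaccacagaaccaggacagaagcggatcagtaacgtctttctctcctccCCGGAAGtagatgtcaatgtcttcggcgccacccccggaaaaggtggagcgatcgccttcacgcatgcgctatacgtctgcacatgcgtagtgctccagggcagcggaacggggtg
A window was found for 45 of the 55 members. The NRF1 motif was in 10 of them (22.2%), against 9.61% of the 17492 protein-coding genes with a window. For the GABP motif the figures were 11 (24.4%) and 12.9%, and for the YY1 motif 10 (22.2%) and 7.46%. At least 1 of the 3 motifs was in 28 of the 45 (62.2%), against 25.8% of protein-coding genes, and matches of different motifs overlapped in 0 of the members' windows. Of the 24 called members with a window 4 held the NRF1 motif (16.7%), 6 the GABP motif (25%) and 4 the YY1 motif (16.7%), and of the 19 tested members with a window and no call these were 6 (31.6%), 5 (26.3%) and 5 (26.3%). A match describes the letters in the window and is no evidence of binding.

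Cytochrome c itself, Cycs, had 5210 and 1930 before induction, 5290, 5980 and 5400 in early, 9770 and 10300 in middle and 12000, 11800 and 10600 in late samples on array B. Late levels lay above both samples before induction, by 1.85 ± 0.35 on the log2 scale or 3.61-fold (adjusted p = 0.0124 by limma), and the confluent sample was the lowest of the 10. Its probe set carries the maker's mark for probes that related genes may share. A second Cycs probe set on array B without that mark had 7500, 7500 and 6710 in late samples, against 1840 and 1090 before induction (2.35 ± 0.23, adjusted p = 0.000907). The log2 change of the first probe set was 1.14 without the confluent sample and 2.57 without the preconfluent sample, and the call held in both.

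Complex IV, cytochrome c oxidase, passes the electrons to oxygen, and its 11 members had the smallest median log2 change, 0.63 with a range of -0.02 to 1.09. Cox7a2, a small subunit of the membrane part, had 7800, 6230 and 7730 in late samples, against 3900 and 2950 before induction (1.09 ± 0.25, 2.13-fold, adjusted p = 0.0299 by limma). Cox5a, a subunit of the matrix side, had 8390, 8490 and 8200 in late samples, against 5070 and 3330 before induction (1.02 ± 0.22, 2.03-fold, adjusted p = 0.0224). Cox8a had 28500, 22000 and 24900 in late samples, against 12400 and 13100 before induction (0.97 ± 0.27, 1.96-fold, adjusted p = 0.0418). These 3 were the only members of complex IV called, and late samples did not overlap those before induction in any of them. All 3 calls were lost when 1 sample was left out: the adjusted p was 0.147 for Cox7a2 and 0.1 for Cox5a without the confluent sample, and 0.154 for Cox8a without the preconfluent sample. Cox8a lost its call in all 10 such fits, Cox7a2 also without the preconfluent, day 4 or day 28 sample, and Cox5a also without the day 4 or day 7 sample. The median of the complex was 0.39 without the preconfluent sample.

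Cox6a1 had a change as large as that of Cox7a2 but no call, with 15700, 19200 and 23300 in late samples, against 8470 and 9560 before induction (1.09 ± 0.32, adjusted p = 0.0535 by limma). Cox7b had 2470, 2350 and 2450 in late samples, against 1110 and 1420 before induction (0.95 ± 0.28, adjusted p = 0.0536). Both had no overlap between late samples and those before induction. A second, dimmer probe set of Cox7b had a log2 change of 0.004, with overlap between the groups. Cox6c had 8770, 5240 and 8060 in late samples, against 3930 and 5470 before induction (log2 change 0.63, adjusted p = 0.246). Cox7a2l, known for its part in joining complexes III and IV, had 7380, 6600 and 4990 in late samples, against 2940 and 6730 before induction (log2 change 0.49, adjusted p = 0.41). The groups overlapped in both.

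Cox4i1, the subunit through which ATP is known to restrain the enzyme, had a level of 6230 and 8250 before induction, 7760, 8580 and 8630 in early, 9240 and 9460 in middle and 10200, 10600 and 9030 in late samples, and Cox7c had 6790 and 7850 before induction, 7460, 8700 and 8930 in early, 9570 and 9430 in middle and 9800, 10400 and 8360 in late samples. The late levels of both lay above those before induction by a small margin, with changes of 0.47 ± 0.17 (adjusted p = 0.131 by limma) and 0.38 ± 0.17 (adjusted p = 0.209). Both were read on array B, where the highest intensity of any probe set was 16700, against 50900 on array A, and both on probe sets shared by a gene family. A dim Cox7c probe set on array A, not of this family kind, had 161, 83 and 216 in late samples against 144 and 61 before induction. Its log2 change was 0.26, with overlap between the groups. Of the 11 members, 6 were on array B, with a median change of 0.48, and 5 on array A, with 0.95. Of the 11, 7 were on family probe sets, and without these the median of the complex was 0.79. The part of array type and probe set in this was not tested. The RefSeq window of Cox7c, shown for contrast as that of a member with a small change, lies at chr13:86046746-86047045 on the minus strand of GRCm38.p6 and held none of the 3 motifs.
Cox7c: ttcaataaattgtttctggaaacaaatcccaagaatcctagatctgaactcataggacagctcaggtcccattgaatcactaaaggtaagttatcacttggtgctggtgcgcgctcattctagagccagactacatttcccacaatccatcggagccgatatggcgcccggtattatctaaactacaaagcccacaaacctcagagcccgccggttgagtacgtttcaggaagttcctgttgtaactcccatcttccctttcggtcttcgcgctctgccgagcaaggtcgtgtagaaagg

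Some complex IV subunits have forms used in particular tissues. Cox6a2, the heart and muscle form, had -116, 316 and 330 in late samples, against -27 and 313 before induction on array B, with overlap between the groups, and 7 of its 10 samples at or below the floor, and it was not called. Cox8c, known from testis, had 435, 156 and 661 in late samples, against 448 and 289 before induction, also overlapping and not called (-0.02 on the log2 scale). Cox8b, a form of muscle and brown fat that the naming rule left out, was listed at 167, 1910 and 6610 in late samples and was at or below the floor in both samples before induction. It was at least 9.43-fold higher late, with an adjusted p of 0.0819 by limma between the stages and of 0.000311 for the curve along time. Cox8b was above the limit for testing on days 7 and 28 only. It thus entered both tests through late samples alone, and these p-values are no independent support for its rise. Brown fat markers, 4 genes with Cox8b among them, summed to 609 to 7840 in late samples against 153 to 257 before induction, and 0 of the 2 tested were called by limma (1 at an unadjusted p under 0.05, Cox8b). Cox8b made up most of the sum on days 7 and 28. Cidea, which was not tested, also rose, with 80, 152 and 964 in late samples against -159 and -52 before induction. Elovl3 had 300, 211 and 187 in late samples against 118 and 257 before induction, and Ucp1, the uncoupling protein that defines brown fat, was at or below the floor in all 10 samples.

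Complex V makes ATP, and its 12 tested members had a median log2 change of 1.01 and a range of 0.35 to 1.47. Of the catalytic head, Atp5b, the beta subunit, had 22100, 14500 and 19200 in late samples, against 9570 and 5990 before induction (2.42-fold, adjusted p = 0.0271 by limma), and Atp5a1, the alpha subunit, had 7550, 8990 and 8460 in late samples, against 3990 and 5280 before induction on array B (1.81-fold, adjusted p = 0.0331). Neither overlapped. A second, dimmer probe set of Atp5b had a log2 change of 0.08 (adjusted p = 0.921), and over the mean of both probe sets the change was 0.68 with an adjusted p of 0.177, while the Atp5a1 probe set of array A rose by 1.09 ± 0.28 (adjusted p = 0.0307). Atp5c1, the gamma subunit that turns inside the head, had 5070, 4570 and 5530 in late samples, against 2370 and 2680 before induction (adjusted p = 0.0584), without overlap and without a call.

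Of the stalk that links head and membrane, Atp5o had 3220 and 3830 before induction, 3580, 3870 and 4890 in early, 6350 and 9180 in middle and 10600, 8560 and 10100 in late samples, the largest change of complex V at 1.47 ± 0.30 on the log2 scale (2.77-fold, adjusted p = 0.0109 by limma). Atp5pb, another stalk subunit, was dim, with 339, 269 and 298 in late samples, against 125 and 155 before induction on array B, at least 1.93-fold higher (adjusted p = 0.00659). All late levels of both lay above all levels before induction. Atp5j, also of the stalk, had 6870, 5710 and 5980 in late samples, against 5370 and 4360 before induction (0.35, adjusted p = 0.507) and no overlap. The call of Atp5pb held with each sample left out, and Atp5o had an adjusted p of 0.0812 without the preconfluent sample.

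In the membrane part, Atp5g1, which encodes the subunit c that forms the rotating ring, had 3690 and 3000 before induction, 4280, 4850 and 3540 in early, 7680 and 10100 in middle and 10200, 5690 and 7190 in late samples. Its highest levels came on days 3 and 4, late levels did not overlap those before induction, and its late level was 2.25-fold that before induction (adjusted p = 0.0449 by limma). Atp5l had 9280, 7320 and 8490 in late samples, against 3120 and 4340 before induction (2.26-fold, adjusted p = 0.0229) and Atp5j2 had 9980, 6660 and 8780 in late samples, against 3530 and 4420 before induction on array B (2.12-fold, adjusted p = 0.0206), neither overlapping. Atp5k had a log2 change of 1.02 (adjusted p = 0.141), Atp5md of 0.88 (adjusted p = 0.0582) and Atp5mpl of 0.65 (adjusted p = 0.189), none of them called. Leaving out the preconfluent sample gave adjusted p of 0.173 for Atp5a1, 0.128 for Atp5j2 and 0.145 for Atp5l, and leaving out the confluent sample gave 0.161 for Atp5b and 0.184 for Atp5g1. Atp5g1 lost its call in 9 of the 10 such fits, all but the one without day 7, and Atp5a1 in 6, which were also those without the 12-hour, day 2, 3, 7 or 28 sample. The calls of Atp5b and Atp5j2 were lost without the day 4 or the day 28 sample too.

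Along the whole time course, 32 of the 53 members changed by limma's F test of a smooth curve (60.4%), against 16.8% of all probe sets tested. These were 12 members of complex I, all 8 of complex III, Cycs, 3 of complex IV and 8 of complex V. The curve and the comparison of stages shared 22 calls. The curve did not call 6 members that the stages had: Ndufa10 (adjusted p = 0.262 by limma), Ndufab1 (0.0767), Ndufaf1 (0.0658), Cox5a (0.0523), Cox8a (0.0579) and Atp5g1 (0.0546). It called 10 that the stages had not, among them Uqcrb (adjusted p = 0.0144), Cox6a1 (0.0219), Cox7b (0.047, but 0.718 for its second probe set), Atp5c1 (0.0193), Ndufb7 (0.023) and Ndufa3 (0.0355). Its lowest adjusted p among members was that of Uqcrfs1, 7.73e-05.

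**Figure D3:**
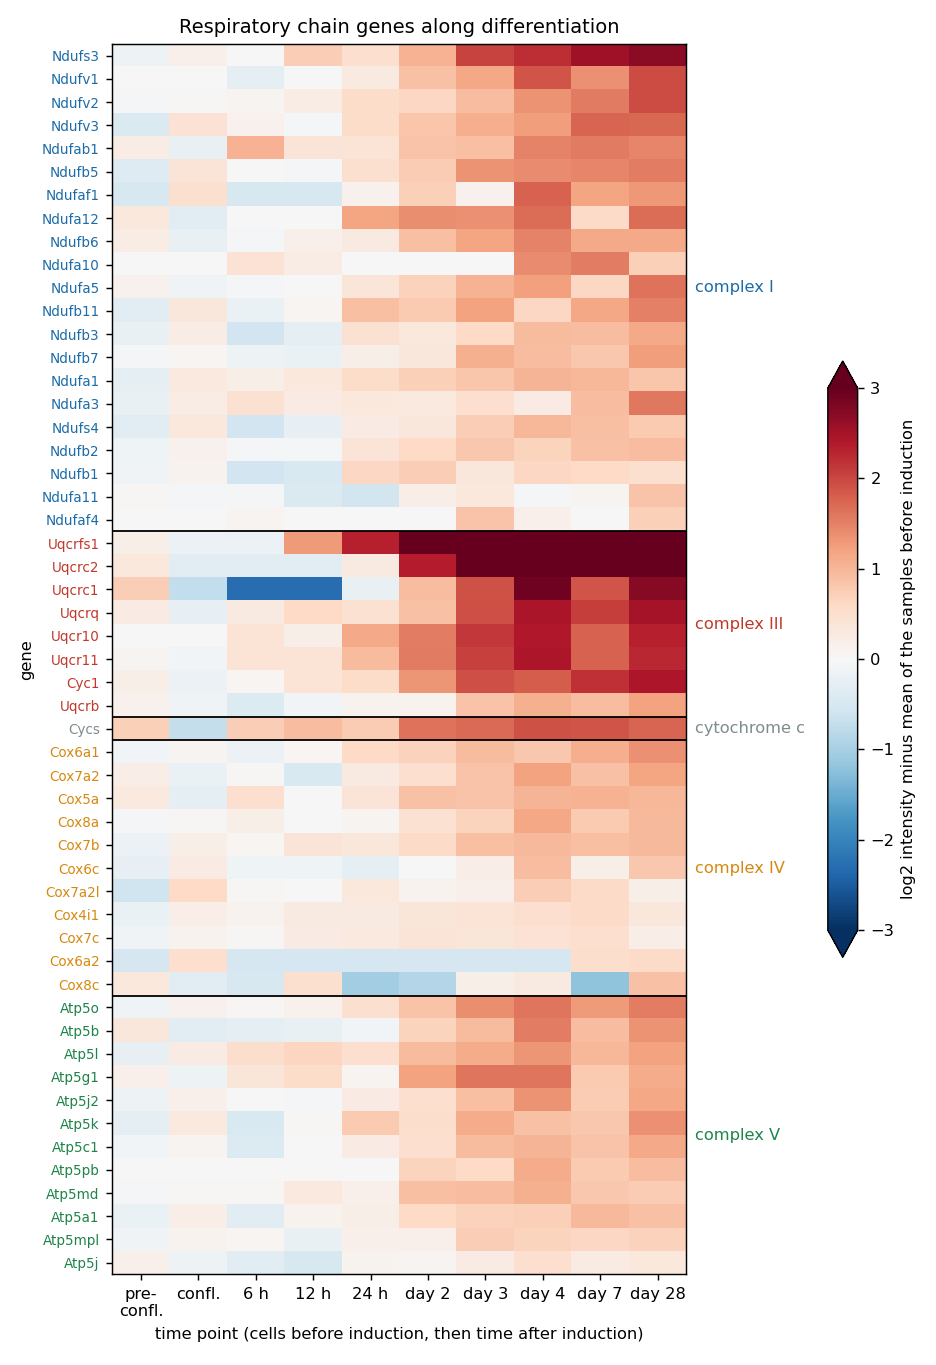
Log2 intensity of the 53 tested genes in each of the 10 samples minus the mean of the samples before induction, in time order from left to right, by complex from top to bottom and by their late level within each. Red is higher and blue lower than before induction, and the colours end at 3 and -3. Most rows turn red from day 2 or 3 on, with most complex III rows and that of Ndufs3 among the deepest, and that of Uqcrb in complex III paler.

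The first day after induction brought no call among the members. In early samples against those before induction 0 members were higher and 0 lower by limma, where 0.198% of all probe sets were called higher and 0.158% lower, and at an unadjusted p under 0.05 there was 1 member in each direction. The median log2 change was 0.11. Without the preconfluent sample 1 member was called, Cycs, with a log2 change of 1.52 and an adjusted p of 0.0301. At 24 hours the medians relative to the samples before induction were 0.38 for complex I, 0.50 for complex III, 0.27 for complex IV and 0.16 for complex V.

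Between the first day and days 2 and 3, 2 members were called higher and 0 lower, against 0.752% and 0.29% of all probe sets tested. They were Uqcrfs1, whose middle level was at least 9.80-fold the early level (log2 change 3.60, adjusted p = 0.0127 by limma), and Uqcrc2, at least 6.94-fold (2.79, adjusted p = 0.00442). Uqcrfs1 lost this call without the 12-hour sample, and both lost it without the day 3 sample or with no filter. With the floor divided by 2 the call of Uqcrc2 held and that of Uqcrfs1 did not. The second Cycs probe set, without the family mark, also passed at this step (1.24, adjusted p = 0.04935 by limma). The probe set chosen for Cycs did not (0.85, adjusted p = 0.366). Without adjustment, 23 members passed upward and 0 downward. Of the 53 members 51 had a change above 0, and the medians were 0.71 for complex I, 1.27 for complex III, 0.30 for complex IV and 0.68 for complex V. From one sample to the next, 84.9% of members were higher on day 2 than at 24 hours, against 48% of all probe sets tested, and 86.8% were higher on day 3 than on day 2, against 49%.

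From the middle to the late samples, 0 members were called higher and 0 lower by limma, against 0.224% and 0.0659% of all probe sets, and the unadjusted counts were 7 and 0. The median log2 change was 0.34, and 48 of 53 were above 0. Day 4 was above day 3 in 79.2% of members and in 49.3% of all probe sets. Day 7 was then below day 4 in 67.9% of members, against 47.1%, and day 28 stood above both in 41.5%, against 30.4%. Each of these steps compares single samples.

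**Figure D4:**
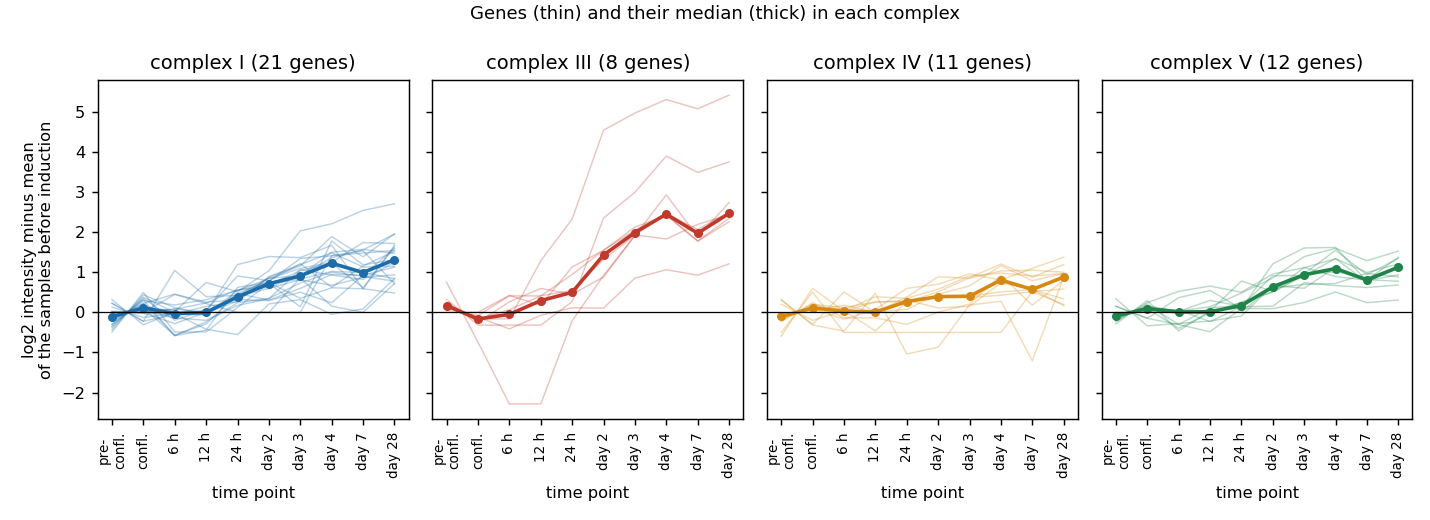
Log2 intensity minus the mean of the samples before induction for the tested members of complexes I, III, IV and V (thin lines) and their median (thick line with points), in time order on a shared axis. On days 2, 3, 4, 7 and 28 the median of complex III was 1.43, 1.99, 2.44, 1.97 and 2.46, and that of complex I 0.71, 0.91, 1.22, 0.99 and 1.31.

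The profiles of the 4 complexes had a like outline at different heights. On days 2, 3, 4, 7 and 28 the median of complex IV was 0.39, 0.40, 0.80, 0.57 and 0.88, and that of complex V 0.63, 0.93, 1.09, 0.81 and 1.12. All 4 medians were lower on day 7 than on days 4 and 28. Of the 28 members called in late samples, 2 stayed above the midpoint between their mean log2 levels before induction and late from 24 hours on (Ndufa1 and Uqcr10), 17 from day 2, 7 from day 3 and 2 from day 4 (Ndufa10 and Ndufaf1). By the middle samples, these members had covered a median of 69.2% of their own late change. The median was 75.4% in 7 genes of complex III (range 56.2 to 90.3%) and 75.7% in 7 of complex V (63.6 to 120%). It was 62.9% in 3 of complex IV (56.9 to 84.6%) and 59.9% in 10 of complex I (0 to 83%), so the ranges overlap. The highest level of the 28 members came on day 4 in 16, on day 7 in 5 and on day 28 in 7.

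Other mitochondrial genes gave a setting for these values, to be read against the 5.82% of all probe sets called higher. Of complex II and the electron transfer flavoprotein, which feed electrons to ubiquinone beside complex I, both genes tested were called higher late than before induction: Sdhb by 3.95-fold and Etfb by 3.00-fold. Of 15 tested factors known to assemble or stabilise the complexes, 5 were called higher (33.3%) and 0 lower, with a median log2 change of 0.50: Uqcc1, a factor for complex III, at least 6.11-fold, Higd1a 3.51-fold, Phb 2.65-fold, Cox17, a copper carrier for complex IV, 2.63-fold, and Phb2 1.77-fold. Of 31 mitochondrial ribosomal proteins, 4 were called higher (12.9%) and 0 lower (median 0.46). For 12 genes of protein import the counts were 3 (25%) and 0 (median 0.66), and for a list of 10 tested carriers, porins and uncoupling proteins that also holds the ATPase inhibitor Atpif1 they were 2 (20%) and 0 (median 0.40), the 2 being the citrate carrier Slc25a1 with 2.94-fold and the dicarboxylate carrier Slc25a10 with 5.10-fold. Of 11 tested regulators of mitochondrial genes, 0 were called in either direction by limma, 1 was higher and 0 lower at an unadjusted p under 0.05, and the median was -0.03. The 1 was Tfam, with 292, 322 and 287 in late samples against 147 and 160 before induction (adjusted p = 0.0506 by limma). Of the 11, 5 had a change above 0, and the largest, downward, was that of Gabpb1 (-0.93, adjusted p = 0.255). Esrra had 1150, 1330 and -145 in late samples against 318 and 311 before induction. Gabpa, at or below the floor in 9 of 10 samples, was not tested. For Nrf1, Ppargc1a and Ppargc1b there was no probe set with a single symbol.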

How the data were processed

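The deposited values are linear intensities, 1 per probe set, sample and array type, scaled by the authors. Per the labels' protocols, total RNA was extracted with Trizol and labelled with biotin after the array maker's manual, and the software is not given in the sources used here. The precision is limited by how many arrays there are. The members and gene lists were chosen with earlier results of these data known.

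The floor was the size of the 10th percentile, which was negative. Probe sets above the overall median, or the floor where higher (182 on array A, 156 on array B), in at least 2 of 10 samples were tested, 7582 in all. Stage means of log2 values were fitted for each array type with limma 3.58.1 in R 4.3.3 on 6 residual degrees of freedom. The trend was tested by F statistic on a natural spline of time order (3 degrees of freedom). Benjamini-Hochberg adjustment ran over both array types together, every adjusted p is limma's, and an adjusted p under 0.05 was a call. The trimmed means of the arrays agreed within 5%, so the authors' scaling was kept. Folds are ratios of geometric means, written "at least" where the dimmer stage touched the floor, as the smaller of the ratios of geometric and of plain means. Every member is named. All 55 members matched a RefSeq gene by Entrez ID, and 3 probe sets with several symbols were left out. The code was tested on simulated data.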

Additional observations from a re-analysis of the deposited data

How the results depend on the processing

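The settings tried were other floors, no filter or a stricter one, quantile normalization, the mean of a gene's probe sets, a mean-variance trend, leaving out family probe sets, a spline of 2 degrees of freedom, adjustment within each array type, and each sample left out in turn. No result changed direction under any of them. The 28 members called higher in late samples than before induction became 17 with no filter on low values, and 13 of the 28 calls were lost there. With each sample left out, the count was 13 to 27, lowest without the preconfluent sample, and 10 of the 28 calls held in every such fit. In early against before the range was 0 to 1. In middle against early the count of 2 became 1 with the floor divided by 2, 0 with no filter and 4 with a mean-variance trend (Cyc1, Uqcrc1, Uqcrc2 and Uqcrfs1), and 0 to 3 with a sample left out. In late against middle it was 0 throughout. The curve along time called 23 to 31 with a sample left out, against 32. The median log2 change of complex I was then 0.94 to 1.22, of complex III 2.08 to 2.45, of complex IV 0.39 to 0.87 and of complex V 0.92 to 1.10. That of complex IV, 0.63, was 0.79 with the stricter filter, 0.51 over the mean of all probe sets and 0.79 without family probe sets. These settings change which genes or samples enter, and other causes were not tested. No paired analysis was possible because each time point was a single sample and the stages share no replicate numbers from the labels. Levels near the floor bound a fold from below.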
